A study of Papio anubis and Macaca mulatta with 6 samples.

Results

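The piRNA pathway genes described here are the 10 genes PIWIL1, PIWIL2, PIWIL4, MAEL, TDRD1, TDRD9, DDX4, ASZ1, MOV10L1 and GTSF1, found by symbol among the 34178 genes listed for the baboon and the 21356 listed for the rhesus monkey. All 10 were listed once in each species. The data were single-cell UMI counts (unique molecular identifiers, 1 per captured transcript) from testis cell suspensions of 2 olive baboons (Papio anubis) and 2 rhesus macaques (Macaca mulatta). The animals were immature, and their testes were obtained at necropsy after euthanasia for another purpose. No treatment is named for them. The sources assign ages to the species differently, so no age was tied to an animal. As the paper assigns them, the 2 animals of each species differed in age, and the baboon pair included a newborn. Baboon 1 gave the libraries 1A and 1B, baboon 2 and rhesus 1 gave 1 library each, and rhesus 2 gave the libraries 2A and 2B. Libraries A and B share an animal, so n = 2 animals per species, and each species was analysed alone.

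Cells had at least 1000 UMIs and 200 detected genes. Germ cells were those with UMIs of at least 2 of the rule genes DAZL, TEX15, SMC1B, MAGEB2 and SOHLH1. Somatic cells had none of these genes, and cells with exactly 1 entered neither set. MAGEB2 was not analysed in the rhesus monkey, so 4 rule genes were used there. The rule gave 128, 67 and 412 germ cells among 9125, 5021 and 7546 cells in baboon 1A, 1B and 2. In rhesus 1, 2A and 2B it gave 86, 14 and 8 germ cells among 10400, 6339 and 5893 cells. No member gene entered the rule. Levels are CPM, the UMIs of a gene scaled to 1000000 UMIs of the summed cells, with exact Poisson intervals where given, which cover counting error only. Because 1 tag is counted per transcript in this 3′ assay, a CPM does not scale with transcript length, although it depends on the annotated 3′ end of each gene.

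The piRNA pathway protects the male germ line from transposons. PIWI proteins load small RNAs of the piRNA class, cut transposon transcripts in the cytoplasm, and direct DNA methylation and chromatin silencing at transposon copies in the nucleus. PIWIL1, PIWIL2 and PIWIL4 are the PIWI proteins themselves. PIWIL2 acts in the cytoplasm of fetal and later germ cells, PIWIL4 is the nuclear form, and PIWIL1 is best known from meiotic and postmeiotic cells. MOV10L1 is the RNA helicase that feeds piRNA precursors into the pathway, ASZ1 (GASZ) anchors the machinery at mitochondria, DDX4 (VASA) is a germ granule helicase, and TDRD1 and TDRD9 are Tudor proteins that bind modified PIWI proteins. MAEL (Maelstrom) and GTSF1 assist PIWI-directed silencing.

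The regions upstream of 4 members, which differed in level and in their letters, are shown as examples. They are the 200 bases before the RefSeq gene start in the rhesus genome (Mmul_10), read 5′ to 3′ on the gene's strand, with matches to any of the searched motifs in capitals. MAEL lies on the plus strand at chr1:24344020-24344219, TDRD1 on the plus strand at chr9:114705416-114705615, PIWIL4 on the plus strand at chr14:87787442-87787641 and MOV10L1 on the minus strand at chr10:1388367-1388566.
MAEL: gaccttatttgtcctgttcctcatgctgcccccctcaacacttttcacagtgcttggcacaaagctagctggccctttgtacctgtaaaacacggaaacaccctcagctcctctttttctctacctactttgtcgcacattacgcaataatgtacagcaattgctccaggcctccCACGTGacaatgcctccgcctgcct
TDRD1: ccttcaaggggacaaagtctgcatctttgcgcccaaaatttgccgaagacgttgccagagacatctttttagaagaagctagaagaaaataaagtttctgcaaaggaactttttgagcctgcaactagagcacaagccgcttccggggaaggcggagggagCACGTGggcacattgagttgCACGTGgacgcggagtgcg
PIWIL4: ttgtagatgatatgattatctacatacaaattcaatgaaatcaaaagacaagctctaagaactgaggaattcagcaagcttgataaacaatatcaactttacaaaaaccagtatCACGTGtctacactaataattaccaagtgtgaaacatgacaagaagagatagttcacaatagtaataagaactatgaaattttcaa
MOV10L1: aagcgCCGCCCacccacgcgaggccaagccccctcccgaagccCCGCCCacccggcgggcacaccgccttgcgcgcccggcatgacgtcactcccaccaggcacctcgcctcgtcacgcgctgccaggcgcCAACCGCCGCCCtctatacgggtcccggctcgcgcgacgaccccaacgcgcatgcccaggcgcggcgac

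The E-box CACGTG, a letter string that reads the same on both strands, was found in the windows of MAEL, PIWIL4 and TDRD1, with 2 copies in TDRD1. It was present in 3 of 10 member windows and in 5.53% of 20783 windows of the same length. The GC box GGGCGG was found in 3 of 10 members (PIWIL1, TDRD9 and MOV10L1), against 41.2% of all windows. The CCAAT box was found in 3 (PIWIL1, PIWIL2 and TDRD9), against 26.9%, and the MYB letters TAACNG or CAACNG in 3 (TDRD9, MOV10L1 and GTSF1), against 31.6%. All motifs were searched on both strands, and a MYB match and a GC box match adjoin in the capitals of MOV10L1. Windows of MOV10L1 and TDRD9 held 31 and 28 CpG dinucleotides, whereas those of PIWIL4 and GTSF1 held 1 and 0, beside a median of 10 over all windows. A match is a string of letters, not a measured binding site, and no start site was measured here.

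The libraries held 16875294 to 49803025 UMIs, of which 56.96% to 87.54% were in cells. The cells with the highest Scrublet scores were marked as doublets, in a number set beforehand from the cells per library, and were kept. The share marked, 4.023% to 8.317%, is therefore not a measured doublet rate. Among the marked cells were 43 of 607 baboon and 7 of 108 rhesus germ cells. Libraries 1A and 1B shared 57 cell barcodes and 2A and 2B shared 67, where 62.14 and 50.67 would be shared if barcodes were drawn independently. One of the 67 was a germ cell barcode.

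The germ cells of the baboon were a mixture with respect to these genes. Of the 607 baboon germ cells by the rule, 387 carried DAZL and TEX15 and no other rule gene. In these, the 10 members summed to 10.72 CPM (95% interval 8.419 to 13.46), against 10.51 CPM (9.588 to 11.5) in somatic cells. At least 3 of the 6 Sertoli cell markers were detected in 329 of these 387 cells. The other 220 cells, with a UMI of SMC1B, MAGEB2 or SOHLH1, had 648.9 CPM of the members (622 to 676.6), and 81 of the 220 had at least 3 Sertoli markers. The split by these genes was chosen after seeing the members' values, so the contrast between the 387 and the 220 cells is a description.

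The same held in each baboon. In the DAZL and TEX15 cells the members reached 14.87 CPM in baboon 1 and 10.37 CPM in baboon 2. In the cells with SMC1B, MAGEB2 or SOHLH1 they reached 840.8 and 568.0 CPM. The 2 groups of cells were present in unequal shares, since the DAZL and TEX15 cells made up 106 of 195 germ cells in baboon 1 and 281 of 412 in baboon 2. The Sertoli markers summed to 8630 CPM, 8361 CPM and 8223 CPM in the DAZL and TEX15 cells of baboon 1A, 1B and 2, and to 1425 CPM, 1114 CPM and 4745 CPM in the restricted cells, as the 220 are called from here on. The 18 germ cell markers outside the rule (SALL4, UTF1, DMRT1 and others) summed to 91.59 CPM, 127.2 CPM and 165.6 CPM in the former and to 2559 CPM, 2914 CPM and 1294 CPM in the restricted cells. Both rule genes were also counted outside the restricted cells. Over all cells with Sertoli markers, TEX15 had 65.09 CPM, 68.05 CPM and 77.73 CPM in baboon 1A, 1B and 2, and DAZL had 27.23 CPM, 30.82 CPM and 18.57 CPM, rule cells included. In near-empty droplets (5 to 50 UMIs per barcode) of the same libraries DAZL had 35.77 CPM, 33.93 CPM and 22.26 CPM, above these values, and TEX15 had 31.17 CPM, 29.82 CPM and 48.97 CPM, below them. The germ cell name was therefore borne out by the check markers for the summed restricted cells and not for the DAZL and TEX15 cells. In baboon 2, 77 of the 131 restricted cells had at least 3 rule genes. These 77 had 1866 CPM of check markers and 3055 CPM of Sertoli markers, against 1294 CPM and 4745 CPM over all 131. The restricted cells of baboon 2 with only 2 rule genes thus had lower check marker and higher Sertoli marker levels. Whether each of them is a germ cell was not tested.

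Of the rhesus germ cells, 8 of 108 carried DAZL and TEX15 alone. The members summed to 463.3 CPM (422.9 to 506.6) over all 108 cells and to 472.4 CPM over the 100 with SMC1B or SOHLH1, against 7.277 CPM (6.481 to 8.144) in somatic cells. The 17 check markers listed for this species summed to 1872 CPM, 1686 CPM and 1993 CPM in rhesus 1, 2A and 2B, against 87.2 CPM, 64.6 CPM and 69.03 CPM in somatic cells.

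The level of the members rose with the number of rule genes in a cell in the baboon. No such rise was seen in the rhesus monkey, where few cells had more than 2. Of the 473 baboon cells with 2 rule genes, 387 were the DAZL and TEX15 cells, whose member level was close to the somatic one. Few rhesus cells were of that kind, so the levels at 2 rule genes are not alike in cell make-up between the species. In the baboon the members had 46.2 CPM in cells with 2 rule genes, 424.6 CPM with 3, 1073 CPM with 4 and 1085 CPM with all 5. Cells with UMIs of at least 2 members made up 7.822%, 65.22%, 97.92% and 100% of these. In the rhesus monkey the level was 447.7 CPM with 2 rule genes, 484.5 CPM with 3 and 462.4 CPM with 4, while the share with at least 2 members went from 48.68% to 78.57% and 100%. Only 22 of 86 germ cells of rhesus 1 and 10 of 22 of rhesus 2 had at least 3 rule genes. The rhesus values at 4 rule genes, depth included, therefore rest on few cells. Cells with the most rule genes were also deeper than cells with 2. In the baboon, mean depth did not rise at each step between these. The median depth went from 5338 UMIs with 2 rule genes to 39370 with 4 in the rhesus monkey, and from 12770 with 2 to 17610 with 5 in the baboon. The shares were not thinned to equal depth.

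**Figure D1:**
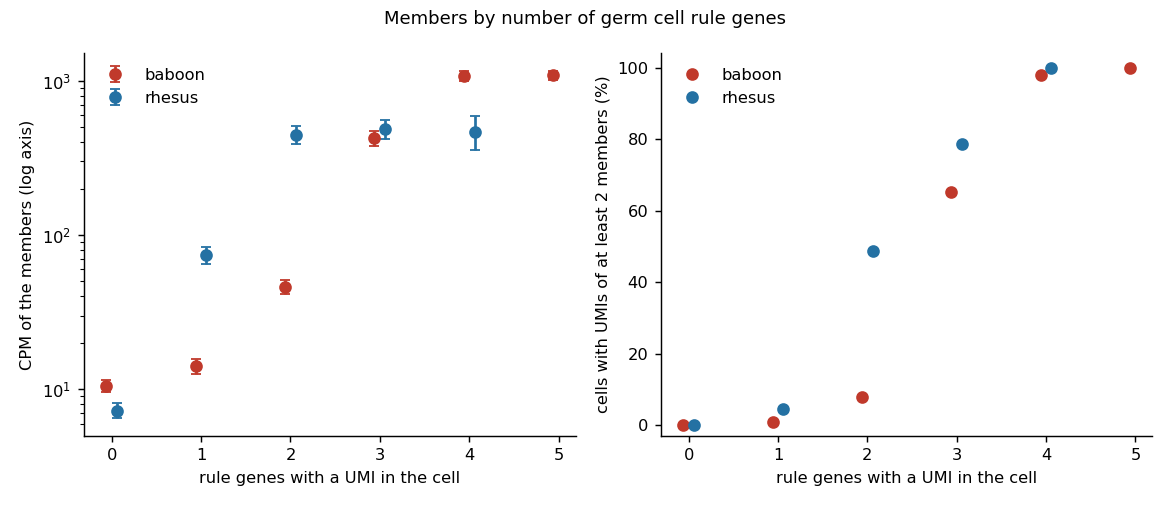
CPM of the 10 members on a log axis with 95% Poisson intervals (left), and the percentage of cells with UMIs of at least 2 members (right), by the number of rule genes detected in the cell, all animals of a species together. The baboon rose from 46.2 CPM at 2 rule genes to 1085 CPM at 5, while the rhesus monkey stood at 447.7 CPM already at 2. Most baboon cells at 2 rule genes, but few rhesus cells, carried DAZL and TEX15 alone.

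Deep sequencing of a cell also sets how many members can be seen in it. Germ cells by the rule had a median of 6769, 6461 and 17470 UMIs in baboon 1A, 1B and 2, and of 5524, 15090 and 14640 in rhesus 1, 2A and 2B. Somatic cells had medians of 1816, 1900 and 2290 UMIs in the baboon libraries and of 1617, 1608 and 1596 in the rhesus libraries. At least 1 member was detected in 72 of 89 restricted cells of baboon 1 and in 95 of 131 of baboon 2. After thinning every cell to 1000 UMIs, the share in the restricted cells was 50%, 58.62% and 43.51% in baboon 1A, 1B and 2, whereas in somatic cells it was 0.8419%, 0.8434% and 1.227%. In rhesus 1, 2A and 2B the thinned share was 34.88%, 50% and 37.5% of germ cells and 1.03%, 0.1484% and 0.1949% of somatic cells. The restricted cells of the baboon and the germ cells of the rhesus monkey stayed far above the somatic cells at equal depth in all 6 libraries. Since the restricted cells were chosen after seeing the members' values, the baboon shares are a description.

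Among the PIWI genes, PIWIL2 and PIWIL4 were counted in the baboon germ cells and hardly at all in the rhesus germ cells. PIWIL2 had 70.61 CPM in baboon 1A, 73.09 CPM in 1B and 16.48 CPM in baboon 2 in germ cells by the rule, and 105.9 CPM, 102.7 CPM and 51.75 CPM in the restricted cells. In somatic cells it had 4.008 CPM, 4.32 CPM and 3.165 CPM. Every germ cell value exceeded every somatic value, and the restricted cells of baboon 2 stood lower than those of baboon 1. PIWIL4 had 61.78 CPM, 63.47 CPM and 11.56 CPM by the rule, 93.99 CPM, 99.64 CPM and 42.07 CPM in the restricted cells, and 0.2991 CPM, 0 CPM and 0.467 CPM in somatic cells. PIWIL1 was the rarest member, at 10.44 CPM, 12.08 CPM and 6.311 CPM in the restricted cells from 7, 4 and 15 UMIs.

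In rhesus 1, 2A and 2B, PIWIL2 had 5, 3 and 0 UMIs in germ cells (7.548 CPM, 11.47 CPM and 0 CPM). PIWIL4 had 2, 1 and 1 UMIs, and PIWIL1 had 0, 1 and 0. In rhesus somatic cells PIWIL1 had 17 UMIs in 21515 cells. This was 0.2641 CPM in rhesus 1 and 0.5286 CPM in rhesus 2, beside 0 CPM and 2.632 CPM in their germ cells. With 0 UMIs in 86 germ cells of rhesus 1, a share of up to 3.488% of cells with a PIWIL1 UMI was still allowed. No PIWI gene could be ranked against another in the rhesus monkey at this depth.

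MAEL and GTSF1 were the members counted most in rhesus germ cells. MAEL had 170.6 CPM in rhesus 1, 198.8 CPM in 2A and 126.7 CPM in 2B, and 2.641 CPM, 0.8489 CPM and 1.007 CPM in the somatic cells of the same libraries. GTSF1 had 125.3 CPM, 214.1 CPM and 202.7 CPM in germ cells and 6.074 CPM, 0.08489 CPM and 0.9155 CPM in somatic cells. The somatic value of GTSF1 was highest in rhesus 1, with 115 of 126 somatic UMIs. In the baboon, MAEL had 143.2 CPM, 142.3 CPM and 21.97 CPM by the rule and 217.8 CPM, 223.4 CPM and 77.42 CPM in the restricted cells, against 0.4214 to 0.8821 CPM in somatic cells. GTSF1 had 36.29 CPM, 44.24 CPM and 9.725 CPM by the rule and 55.2 CPM, 69.45 CPM and 35.34 CPM in the restricted cells, against 0.1054 to 0.3589 CPM. Both genes were separated between germ and somatic cells in every library of both species.

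The Tudor genes differed between baboon 1 and baboon 2. TDRD1 had 85.04 CPM in baboon 1A, 102.7 CPM in 1B and 188.5 CPM in baboon 2 in the restricted cells, and was the only member higher in baboon 2 than in both libraries of baboon 1. Its somatic level was 1.017 CPM, 1.264 CPM and 2.283 CPM. TDRD9 had 47.74 CPM, 39.25 CPM and 19.77 CPM in the restricted cells and 1.675 CPM, 1.686 CPM and 0.5708 CPM in somatic cells. Baboon 2 was also the library made with the version 3 chemistry, so animal and chemistry cannot be told apart. The restricted cells of baboon 2 also had more of the Sertoli markers and less of the germ cell check markers than those of baboon 1 (values above), and the part of this in the gene levels was not tested. In the rhesus monkey TDRD1 had 10.57 CPM, 34.41 CPM and 16.89 CPM from 7, 9 and 2 UMIs, and TDRD9 had 4, 0 and 1 UMIs. No UMI of TDRD9 was found in 21515 rhesus somatic cells, which allows a share of up to 0.01394%.

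DDX4, ASZ1 and MOV10L1 completed the set. DDX4 had 93.99 CPM, 157.0 CPM and 98.45 CPM in the restricted cells of baboon 1A, 1B and 2, and 24.15 CPM, 53.53 CPM and 50.67 CPM in the germ cells of rhesus 1, 2A and 2B. Its somatic levels were 1.735 CPM, 2.107 CPM and 2.024 CPM in the baboon and 0.8451 CPM, 0.08489 CPM and 0.2746 CPM in the rhesus monkey. ASZ1 had 64.15 CPM, 81.53 CPM and 22.72 CPM in the restricted baboon cells and 67.93 CPM, 38.23 CPM and 84.46 CPM in the rhesus germ cells, with 7 UMIs in 17458 baboon somatic cells and 28 in 21515 rhesus somatic cells. All 28 rhesus somatic UMIs of ASZ1 came from rhesus 1. MOV10L1 had 31.33 CPM, 24.16 CPM and 25.67 CPM in the restricted baboon cells, and 1 UMI in the germ cells of each rhesus library.

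**Figure D2:**
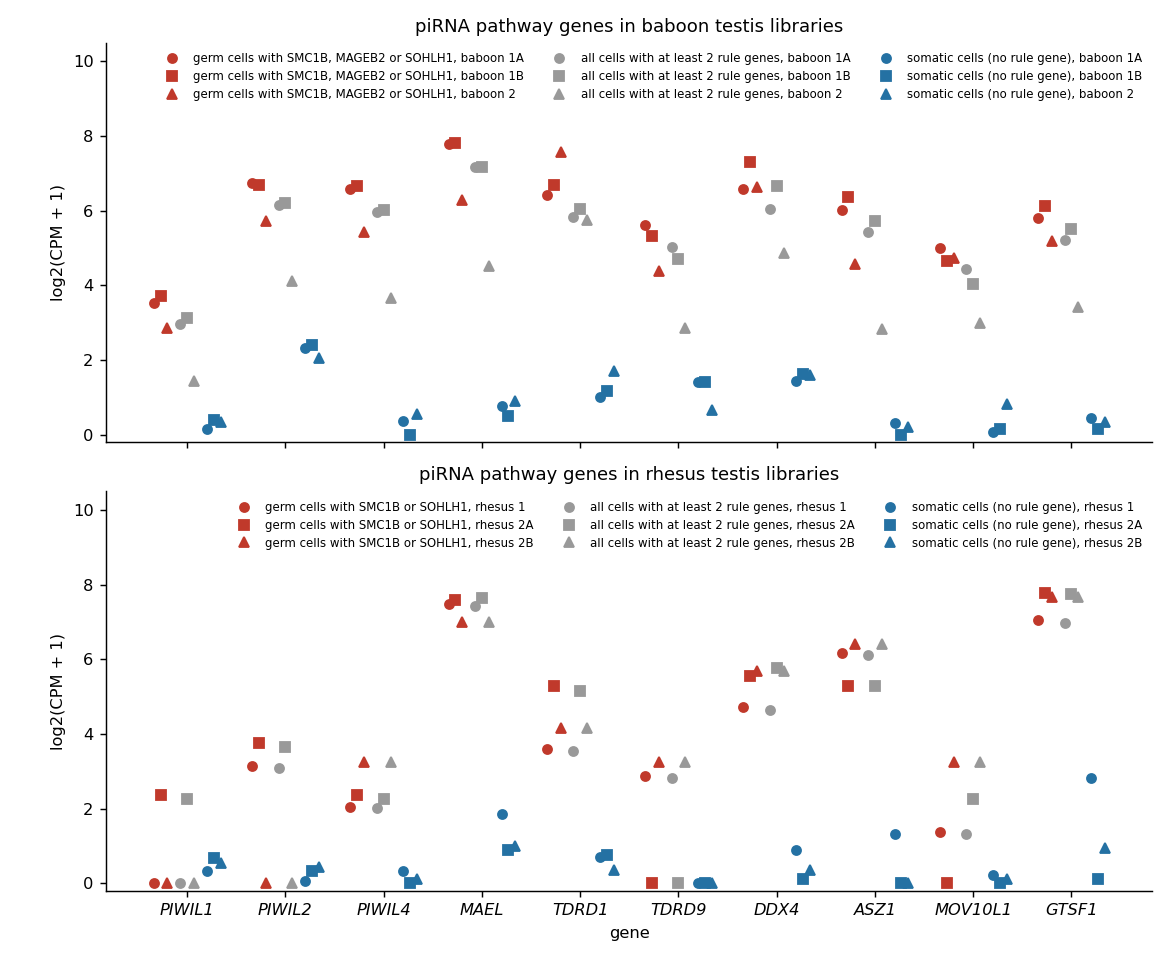
Level of each member as log2(CPM + 1) in germ cells with SMC1B, MAGEB2 or SOHLH1 (red), in all cells with at least 2 rule genes (grey) and in somatic cells (blue), 1 point per library. In the baboon the red points lie above the blue points for all 10 genes. In the rhesus monkey MAEL, GTSF1, ASZ1, DDX4, TDRD1 and PIWIL4 show the same in each library, TDRD1 and PIWIL4 from few UMIs.

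The make-up of the member UMIs therefore differed between the species. In the 220 restricted baboon cells, which held 2192 member UMIs, TDRD1 took 24.6%, MAEL 18.4%, DDX4 15.9%, PIWIL2 10.4% and PIWIL4 8.94%. These pooled shares hide a difference between the baboons. MAEL had 219.7 CPM and TDRD1 90.87 CPM in baboon 1, against 77.42 CPM and 188.5 CPM in baboon 2, so TDRD1 stood above MAEL only in baboon 2. In the 100 rhesus cells with SMC1B or SOHLH1, which held 468, MAEL took 37.2%, GTSF1 34.0% and ASZ1 13.7%, and the 3 PIWI genes together had 13 UMIs. GTSF1 and ASZ1 took 6.57% and 5.66% in the baboon. The species were aligned to different annotations, in which the 3′ end of a gene may be placed differently, and no test between species was made.

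**Figure D3:**
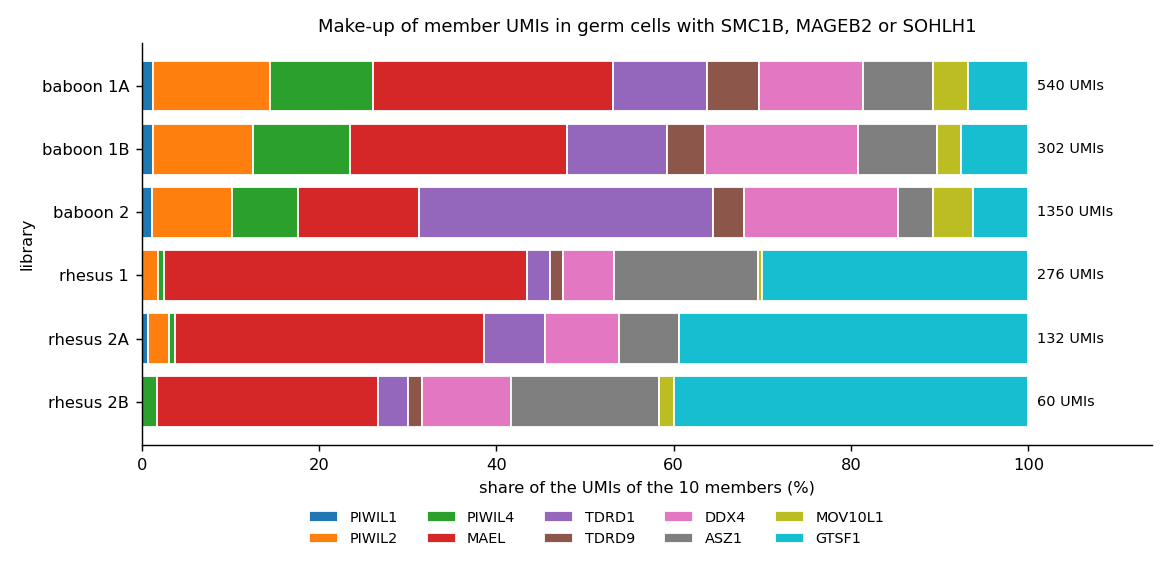
Share of each member among the UMIs of the 10 members (percent, bars to 100) in the restricted germ cells of each library, with the number of UMIs beside each bar. MAEL and GTSF1 fill most of each rhesus bar, and the TDRD1 part is widest in baboon 2.

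Somatic levels were low in each cell class. Classes were set from lists of 6 markers each, counting those listed in the species. The members summed to 10.06 CPM in 8217 baboon cells with Sertoli markers, 9.709 CPM in 4228 with stromal markers and 6.767 CPM in 251 with endothelial markers, with overlapping 95% intervals. In the rhesus monkey the sums were 7.966 CPM in 3651 Sertoli-marker cells and 3.615 CPM in 12050 stromal-marker cells, with intervals that did not overlap (6.135 to 10.17 and 2.853 to 4.518). By animal the sums were 12.69 CPM and 6.174 CPM in rhesus 1 and 4.379 CPM and 1.775 CPM in rhesus 2, from 44, 55, 20 and 22 UMIs, and the 95% intervals were apart in rhesus 1 and overlapped slightly in rhesus 2. All rhesus somatic cells together had 12.41 CPM in rhesus 1 and 2.995 CPM in rhesus 2. Cells with no class reached 13.65 CPM in the baboon and 18.03 CPM in the rhesus monkey. At least 2 members were detected in 14 of 17458 baboon and 26 of 21515 rhesus somatic cells. PIWIL2 took 35.4% of the 478 baboon somatic member UMIs. Its somatic level lay below that of the near-empty droplets, which was 8.176 CPM, 11.31 CPM and 11.13 CPM from 16, 11 and 5 UMIs in baboon 1A, 1B and 2. DDX4 likewise had 4.599 CPM, 8.227 CPM and 4.452 CPM in these droplets, above its somatic level, from 9, 8 and 2 UMIs. MAEL had 5.11 CPM, 2.057 CPM and 6.678 CPM and TDRD1 had 3.577 CPM, 3.085 CPM and 11.13 CPM in these droplets. Both were above their somatic levels, from 2 to 10 UMIs per library. ASZ1, GTSF1 and MOV10L1 also stood higher in the baboon droplets, from 1 to 6 UMIs per library. GTSF1 had 9.486 CPM, 6.026 CPM and 2.209 CPM in droplets of rhesus 1, 2A and 2B, above its somatic levels, from 2, 10 and 4 UMIs. Below the droplet level, the somatic counts of these genes are not read as expression. TDRD9 had 2.555 CPM, 1.028 CPM and 0 CPM in the droplets, from 5, 1 and 0 UMIs. These UMIs were too few to place its somatic level above or below the droplet level. TDRD9 had 22, 9 and 8 UMIs in the 4212, 2272 and 1733 Sertoli-marker cells of baboon 1A, 1B and 2. In the 721, 436 and 3071 stromal-marker cells it had 0, 1 and 0 UMIs. In baboon 2 its level was 0.8392 CPM (0.3623 to 1.654) in the former, and the upper bound in the latter was 0.5439 CPM, so the intervals overlapped.

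The germ cell levels were then tested against the somatic levels with UMI sums per animal (edgeR quasi-likelihood test, Benjamini-Hochberg adjustment over all genes tested, called at an adjusted p under 0.05). In the baboon, 6 of the 10 members were called higher in germ cells by the rule and 0 lower. Of 16150 genes tested, 2.46% were called in either direction and 1.79% were called higher. ASZ1 was 6.89 ± 1.1 log2 units higher (SE, n = 2 animals, edgeR adjusted p = 0.027), PIWIL4 6.43 ± 0.95 (0.0204), MAEL 6.4 ± 0.9 (0.0194) and GTSF1 6.08 ± 0.89 (0.0204). TDRD1 was 4.75 ± 0.51 higher and DDX4 4.37 ± 0.59 higher, with edgeR adjusted p = 0.0134 and 0.0168. The other members had positive values that did not pass: MOV10L1 with 4.61 ± 1.09 (edgeR adjusted p = 0.0695), PIWIL1 with 3.78 ± 1.1 (0.125), TDRD9 with 3.5 ± 0.95 (0.101) and PIWIL2 with 3.18 ± 0.69 (0.0546). The median over the 10 members was 4.68, beside −0.1 over all genes tested. ASZ1, PIWIL4 and GTSF1 had 7, 14 and 12 somatic UMIs in all, so they could pass the filter on low counts through their germ cell sums and then had to differ. The same holds for PIWIL1, which had 0.1908 CPM and 0.2594 CPM in the somatic cells of baboon 1 and 2. The count and the median are therefore a description.

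Since the germ and somatic sums come from the same animals, the animal was also entered as a replicate block. All 10 members were then called higher, beside 8.23% of all genes in either direction and 5.58% higher. The same filter on low counts was used in this fit and in those below, except where it is named as left out. Their counts of members are therefore a description too. The members were also 10 of 10 when germ cells needed at least 3 rule genes (16.5% of genes called, 11.7% higher). They were 10 of 10 again when only the restricted cells were used (10.4% called, 9.12% higher). The restricted cells were chosen after seeing the members' values, so their count is a description. DESeq2 called 10 of 10 as well, beside 7.58% of genes in either direction and 5.68% higher, and so did edgeR with no filter on low counts, beside 6.2% and 4.46%. In the cells with at least 3 rule genes, ASZ1 reached 7.88 log2 units, PIWIL4 7.5, MAEL 7.36 and GTSF1 7.31. Without library 1A, 4 members were called (MAEL, TDRD1, DDX4 and GTSF1), since PIWIL4 and ASZ1 then had edgeR adjusted p = 0.0516 and 0.0518, beside 0.73% of genes in either direction and 0.447% higher. A germ cell here also had more UMIs than a somatic cell, and in baboon 2 the Sertoli markers had 7277 CPM in germ cells by the rule and 5648 CPM in somatic cells. The part of either in the fold changes was not tested.

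Among the rhesus data 6 members passed the filter on low counts and were called higher, while PIWIL1, PIWIL4, TDRD9 and MOV10L1 did not pass it. Of 12882 genes tested, 22.3% were called and 10.9% were called higher. A gene that passed the filter through its germ cell counts alone had to differ, so the 6 give no support as a count. MAEL was 6.01 ± 0.6 log2 units higher (SE, n = 2 animals, edgeR adjusted p = 0.0012), ASZ1 5.74 ± 1.16 (0.00853), DDX4 5.58 ± 0.91 (0.00379) and GTSF1 5.01 ± 0.96 (0.00707). PIWIL2, from 8 germ cell UMIs, was 4.82 ± 1.06 higher and TDRD1, from 18, was 4.5 ± 0.88 higher, with edgeR adjusted p = 0.0118 and 0.0074. With the animal as a block 6 were again called, beside 33.5% of genes in either direction and 15.2% higher. In the 100 cells with SMC1B or SOHLH1 6 were called, beside 24.1% and 11.5%. DESeq2 called 5 of 6, beside 22.8% and 11.8%, and did not call ASZ1 (DESeq2 adjusted p = 0.112). With no filter on low counts 7 of 10 were called, beside 22.9% and 9.73%. The additional one was TDRD9, with 5 germ cell and 0 somatic UMIs (edgeR adjusted p = 0.00169), while MOV10L1, PIWIL4 and PIWIL1 had edgeR adjusted p = 0.113, 0.0733 and 0.882. TDRD1 was not called in the 32 cells with at least 3 rule genes (3.11 log2 units, edgeR adjusted p = 0.067), where it had 4 UMIs. There 4 of 5 members tested were called, beside 23.7% of genes in either direction and 9.67% higher.

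**Figure D4:**
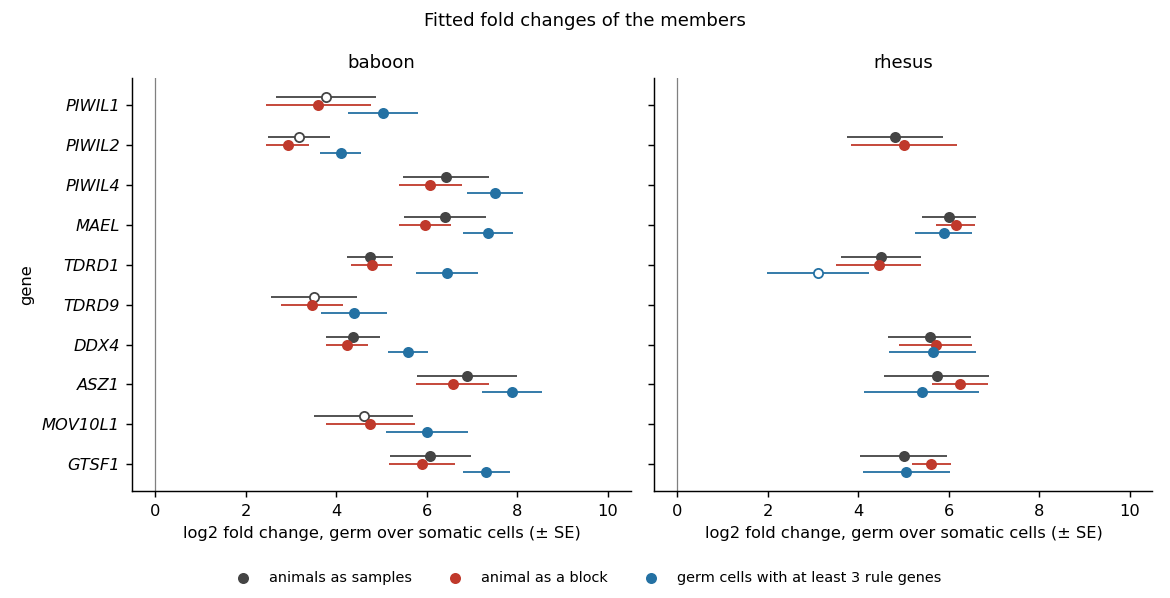
Fitted log2 fold change of germ over somatic cells for each member, by species. Bars are standard errors derived from the test statistic. Fits are from the sums per animal (black), with the animal as a block (red) and in cells with at least 3 rule genes (blue). Filled points were called at an adjusted p under 0.05, open points were not, and a missing point means that the gene did not pass the filter on low counts. All 10 baboon members are filled when the animal is a block, and 6 are filled without it.

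Other genes of the pathway were read from a list of 32. In the baboon 29 were tested, of which 10 were called higher and 0 lower (edgeR, without the block), and 19 were not called, beside 1.79% of all genes higher and 2.46% in either direction. The median was 3.95 log2 units, beside −0.1 over all genes. As with the members, a gene that passed the filter through its germ cell counts alone had to differ. The counts and the median for this list are therefore a description in both species. MORC1, a chromatin ATPase of transposon silencing, was 6.82 ± 0.93 log2 units higher, TDRD10 5.81 ± 1.13, STK31 (which holds a Tudor domain) 5.67 ± 0.68, SPOCD1 (a nuclear partner of PIWIL4) 5.51 ± 1.0 and RNF17 (another Tudor protein) 5.43 ± 0.89. The smallest called values were those of DNMT3L, the cofactor of de novo DNA methylation, at 4.45 ± 0.91, and PLD6, a mitochondrial enzyme of piRNA processing, at 4.44 ± 0.8. In the rhesus monkey 26 were listed and 21 tested, of which 13 were called higher and 0 lower, beside 10.9% of all genes higher and 22.3% in either direction. SPOCD1 led with 5.97 ± 0.93, followed by RNF17 with 5.65 ± 0.98, PNLDC1 (the trimmer of piRNA 3′ ends) with 5.54 ± 1.01, STK31 with 5.21 ± 0.88 and TDRD10 with 4.94 ± 0.6. HSP90AA1, a chaperone also made in somatic cells, at 2.21 ± 0.43 and the ubiquitin ligase scaffold CUL3 at 1.13 ± 0.35 were the smallest. Of the pathway genes that other tissues also use, PRMT5, SND1, TDRD3 and MOV10 were not called in either species without the block. RNF17 and STK31 are also on the list of germ cell check markers. With the animal as a block 16 of 29 were higher in the baboon, beside 5.58% of all genes, and 15 of 21 were higher and 1 lower in the rhesus monkey, beside 15.2% of all genes higher.

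Within the germ cells by the rule, the baboon members were compared between 2 states. The rule cells include the DAZL and TEX15 cells, for which the check markers did not bear out the germ cell name. State U cells had UMIs of more genes of a list for undifferentiated spermatogonia (DIRAS3, EGR4, FGFR3, ID4, TSPAN33, UTF1, HES4) than of a list for progenitor and early differentiating cells (NANOS3, L1TD1, KIT, DMRT1, UPP1), and state P cells the reverse. The U list was written knowing that its genes go with PIWIL4 in earlier results of these data. The direction of PIWIL4 and of the other members is therefore not independent evidence, and the tests between the states are a description. Baboon 1 gave 54 U and 44 P cells and baboon 2 gave 161 and 96. In the restricted cells alone these were 47 and 20, and 69 and 23.

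PIWIL4 was the member that differed most between the states. It had 137.5 CPM, 162.8 CPM and 24.93 CPM in state U of baboon 1A, 1B and 2. In state P it had 4.741 CPM, 0 CPM and 3.088 CPM in the same order. The state P values of 1A and 1B lay below the level of 3 UMIs, which was 14.22 CPM and 19.23 CPM, so the size of the gap there is uncertain. In the restricted cells the levels were 166.4 CPM in state U and 4.127 CPM in state P of baboon 1, and 75.33 CPM and 10.4 CPM in baboon 2. This state P level of baboon 1 also lay below that of 3 UMIs, which was 12.38 CPM. PIWIL2 had 127.8 CPM in U and 35.43 CPM in P of baboon 1, and 26.65 CPM and 12.35 CPM in baboon 2. MAEL had 229.5 CPM and 122.6 CPM in baboon 1, and 38.11 CPM and 16.98 CPM in baboon 2. Each of these 3 genes had the higher level in state U of both baboons. The restricted cells made up 47 of 54 U and 20 of 44 P cells in baboon 1, and 69 of 161 and 23 of 96 in baboon 2, so the states also differed in their share of DAZL and TEX15 cells. Within the restricted cells PIWIL2 had 145.8 CPM in U and 49.52 CPM in P of baboon 1, and 72.73 CPM and 43.67 CPM in baboon 2. MAEL had 261.8 CPM and 185.7 CPM, and 112.6 CPM and 60.31 CPM.

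The test without the animal called 0 of 10759 genes (edgeR, 73 at an unadjusted p under 0.05), and 0 of the 10 members, which does not show that the states were alike. PIWIL4 had 4.69 ± 1.03 log2 units (edgeR adjusted p = 1.0). With the animal as a replicate block, over all rule cells, 168 genes or 1.56% were called, 1.4% higher in state U, and 3 of the 10 members were among these. PIWIL4 was then 3.83 ± 0.46 log2 units higher in state U (edgeR adjusted p = 7.17e-13), PIWIL2 1.42 ± 0.34 (0.00383) and MAEL 1.02 ± 0.29 (0.0312). DESeq2 called PIWIL4 without the block (DESeq2 adjusted p = 0.0372), beside 0.0186% of genes, all higher. With no filter on low counts edgeR also called PIWIL4 alone of the members (edgeR adjusted p = 6.01e-05), beside 0.0568% of genes and 0.0524% higher. At least 3 Sertoli markers were detected in 130 of 215 state U cells and in 93 of 140 state P cells, and their part in the result was not tested. TDRD1 differed by −0.13 ± 0.28 and DDX4 by 0.01 ± 0.29 log2 units with the block. ASZ1 had the lowest value, −0.87 ± 0.38 (edgeR adjusted p = 0.428), with 52.45 CPM in U and 65.41 CPM in P of baboon 1 and 4.585 CPM and 13.38 CPM in baboon 2.

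The block was then fitted in narrower sets of cells, a choice made after seeing the data. In the restricted cells 2 of the 9 members tested were called higher in state U, beside 2.13% of genes in either direction and 1.74% higher. PIWIL4 was 3.72 ± 0.46 log2 units higher (edgeR adjusted p = 4.94e-05) and PIWIL2 1.18 ± 0.31 (0.0446), whereas MAEL did not pass at 0.75 ± 0.24 (0.126). The median over the members was 0.1 there, against 0.63 over all rule cells. With the cells carrying 3 Sertoli markers left out, PIWIL4, PIWIL2 and MAEL were called higher in state U (3.49, 1.51 and 0.81 log2 units) and ASZ1 lower (−1.13 ± 0.36, edgeR adjusted p = 0.0204), beside 12.8% of genes in either direction and 7.57% higher. Without the block, PIWIL4 had 3.94 ± 0.67 log2 units in the restricted cells (edgeR adjusted p = 0.49).

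**Figure D5:**
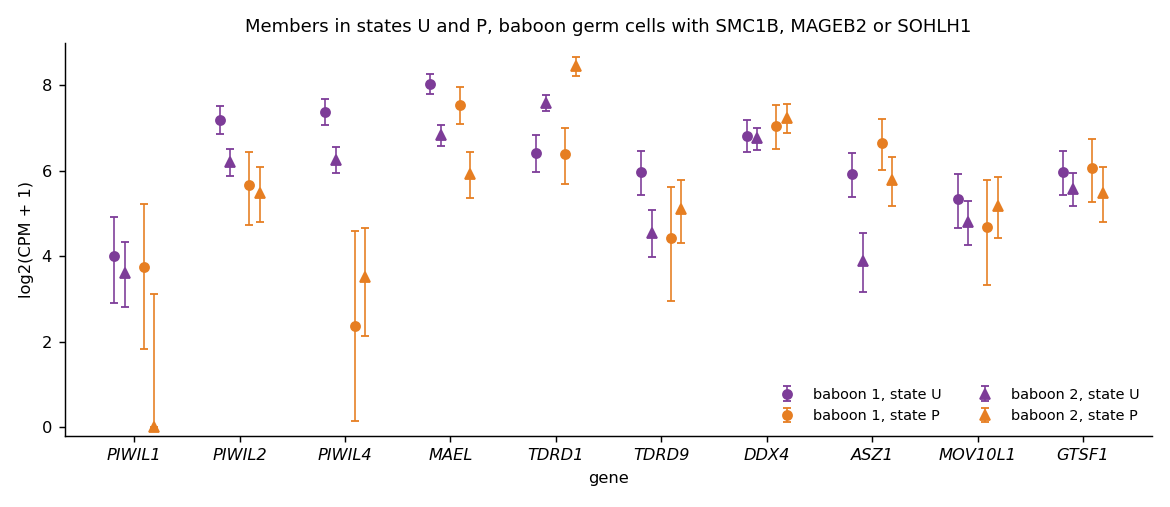
Level of each member as log2(CPM + 1) in state U (purple) and state P (orange) of the restricted germ cells of baboon 1 (circles) and baboon 2 (triangles), with 95% Poisson intervals. PIWIL4 shows the widest gap, from 166.4 CPM to 4.127 CPM in baboon 1 and from 75.33 CPM to 10.4 CPM in baboon 2.

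Of the 25 other pathway genes tested between the states, 5 were called higher in state U with the animal as a block and 0 lower, beside 1.4% of all genes higher, and 0 were called without it. In the restricted cells with the block 4 of 22 were called higher, beside 1.74% of all genes higher. The 5 are named here after their values were seen, with values over all rule cells. The state lists were chosen with earlier results of these data known, so the direction of these genes is not independent evidence. DNMT3L had 75.4 CPM in U and 5.45 CPM in P of baboon 1, and 15.2 CPM and 0.515 CPM in baboon 2 (4.17 ± 0.61 log2 units with the block, edgeR adjusted p = 1.15e-08). Both of its state P levels lay below that of 3 UMIs, which was 8.176 CPM in baboon 1 and 1.544 CPM in baboon 2. SPOCD1 had 60.6 CPM and 10.9 CPM, and 11.7 CPM and 2.06 CPM (2.46 ± 0.52, edgeR adjusted p = 0.000578). MORC1 had 133 CPM and 19.1 CPM, and 25.2 CPM and 7.2 CPM (2.21 ± 0.37, edgeR adjusted p = 2.38e-06). FKBP6, a co-chaperone of piRNA loading, was 1.62 ± 0.38 higher and PLD6 1.35 ± 0.4 higher.

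Rhesus 1 gave 46 U and 16 P cells, but rhesus 2 gave 5 and 8, under the 10 cells needed per state, so no test was made. MAEL had 228.6 CPM in U and 142.5 CPM in P of rhesus 1, and 140.4 CPM and 181.0 CPM in rhesus 2. GTSF1 had 152.4 CPM and 106.8 CPM in rhesus 1, and 196.6 CPM and 255.9 CPM in rhesus 2. The 2 animals went opposite ways for both genes. All 3 PIWIL4 UMIs found in either state lay in state U cells.

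Genes with a pattern like that of the members were ranked by Pearson's r of log2(CPM + 1) with the mean of the members, over sums by cell class and library. In the baboon, over 19 such points of which 3 were germ cells, 11183 genes were ranked, members included, and the closest genes that are no members were L1TD1 (0.9947), MORC1 (0.9939), DYDC1 (0.9927), PPP1R36 (0.9918) and TFAP2B (0.9918). Over the 22 rhesus points, of which 1 was germ cells, DDX25 (0.9809) came first of 3407 genes ranked and TOPAZ1 (0.963) was among the first 5 that are no members, the rest being listed by identifier only. The points share libraries and depth, and the correlation mainly reflects the gap between germ and somatic points, so it is a description. Among the members themselves, MAEL (0.9934) and GTSF1 (0.9886) followed the mean most closely in the baboon, and PIWIL2 (0.8616), TDRD9 (0.8401) and MOV10L1 (0.8274) least of those ranked.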

How the data were processed

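Single-cell libraries of the 10x Genomics 3′ chemistry were analysed (version 3 for baboon 2, version 2 for the rest). The authors deposited raw UMI counts for each gene in each barcode, made with Cell Ranger 3.1.0 on Panubis1.0 or Mmul_10, with all barcodes and no normalization. Seurat 3.2.3 is also named in the submitters' processing notes. Reads outside the annotated exons are not counted, which lowers genes whose 3′ end is annotated too short.

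Cells had at least 1000 UMIs and 200 genes. Exact intervals had a level of 95%, and 0 counts were given a limit of 3 counts. UMIs were summed per animal and tested in each species with edgeR 4.0.16 (quasi-likelihood, TMM, filterByExpr, Benjamini-Hochberg, threshold 0.05) in R 4.3.3, after tests on simulated data. Alternatives used DESeq2 1.42.0, RLE factors, no filter, libraries as samples, each library left out, and other definitions of cells. The animal was not a term of the main fit, but both sums of an animal come from that animal. Deviations of its sums correlated at 0.2832 (baboon) and 0.1758 (rhesus) for germ and somatic cells and at 0.7054 for baboon states. With 2 animals, p-values rest on few degrees of freedom. The SE of an edgeR fold change was its size divided by the square root of the quasi-likelihood F statistic. It is therefore not a measure of spread between animals that is independent of the p-value. Doublets were marked with Scrublet in scanpy 1.11.5, at 0.8% per 1000 cells, and kept. Promoter windows came from RefSeq for Mmul_10, where all 10 members matched by symbol.

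Members, lists and tests were chosen with earlier results of these data known. All members were named. Of the other pathway genes, the 5 largest and the 2 lowest fold changes among those called were named, and so were the 5 genes most like the members with at least 50 germ cell UMIs.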

Additional observations from a re-analysis of the deposited data

Results flagged for a closer look

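Cells with exactly 1 rule gene entered neither set of the main comparison, and were added to the somatic cells in an alternative fit. In these cells the members were counted above the somatic level. In 1009 such rhesus cells the members summed to 73.99 CPM (95% interval 65.23 to 83.59), against 7.277 CPM in somatic cells, and 46 of these cells had at least 2 members. The level was 101.4 CPM in rhesus 1 and 31.94 CPM in rhesus 2, against 12.41 CPM and 2.995 CPM in their somatic cells. In 3627 such baboon cells the sum was 14.06 CPM (12.58 to 15.67), against 10.51 CPM in somatic cells. It was 19.04 CPM in baboon 1 and 11.61 CPM in baboon 2, whose interval (9.984 to 13.43) included the somatic level of 10.84 CPM. At least 3 Sertoli markers were detected in 1929 of the 3627 baboon and 445 of the 1009 rhesus cells.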

How the results depend on the processing

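All fitted fold changes of germ over somatic cells kept their sign under every alternative run, but the counts of calls moved. For the baboon, 397 genes and 6 members were called. Those counts became 1329 and 10 with the animal as a replicate block, 1285 and 10 with libraries as samples (which treats 2 libraries of 1 animal as samples), 1224 and 10 with DESeq2, and 1570 and 10 with no filter on low counts. They became 2644 and 10 with at least 3 rule genes, 3995 and 10 without germ cells carrying 3 Sertoli markers, and 1690 and 10 in cells with SMC1B, MAGEB2 or SOHLH1, a setting chosen after seeing the data. RLE size factors gave 234 genes, at least 2000 UMIs gave 160 and the Cell Ranger cutoff gave 180, with 6 members each. Leaving out 1 library gave 111 to 6854 genes and 4 to 10 members: 111 without library 1A, 258 without 1B, and 6854 without baboon 2, where only libraries of 1 animal remain. The cause of these shifts was not tested.

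For baboon states, 0 genes were called. The replicate block gave 168 genes and 3 members, the block in cells with SMC1B, MAGEB2 or SOHLH1 gave 168 and 2, and the block without cells carrying 3 Sertoli markers gave 745 and 4 (both chosen after seeing the data), DESeq2 gave 2 and 1, and no filter gave 13 and 1. Leaving out 1 library gave 0 to 334 genes and 0 to 2 members, the highest without baboon 2. PIWIL4 had between 3.44 and 5.5 log2 units over the alternatives, with edgeR adjusted p = 0.263 in cells with at least 3 rule genes. For the rhesus monkey, 2871 genes were called, against 4311 with the replicate block, 4356 with libraries as samples and 2197 to 4685 leaving out 1 library, the highest without rhesus 1, where only libraries of 1 animal remain. With the cells carrying exactly 1 rule gene counted as somatic, 2930 rhesus genes were called. In the rhesus monkey, 5 or 6 members were called under every alternative with the filter on low counts, except 4 with at least 3 rule genes. PIWIL1, PIWIL4, TDRD9 and MOV10L1, with 1 to 5 UMIs each in rhesus germ cells, were tested together only with no filter on low counts, where TDRD9 was called.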
